A study of Drosophila melanogaster with 63 samples.

Results

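Glutathione S-transferases (Gst) and UDP-glycosyltransferases (Ugt) are the conjugating enzymes of detoxification, and 62 of their genes were measured here among 9212 genes. They were chosen by symbol: every gene whose updated symbol starts with Gst, 1 of the class letters D, E, O, S, T or Z and a number, or with Ugt and a number. The annotation holds 70 such genes, 35 of each family. Of these, 30 Gst and 32 Ugt genes had values, and GstD6, GstE7, GstE14, GstT1, GstT4, Ugt305A1, Ugt35A1 and Ugt35D1 were not measured here. The members fall into 10 GstD, 12 GstE, 8 of the smaller Gst classes (omega, sigma, theta and zeta) and 32 Ugt genes. All 62 were named by gene identifier, 58 rest on 1 spotted clone and 4 on 2 clones.

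Gst enzymes join the thiol of glutathione to reactive compounds such as insecticides, plant toxins and the products of lipid peroxidation. The delta (GstD) and epsilon (GstE) classes are the large insect groups best known from insecticide resistance and oxidative stress, and both lie mostly in tandem clusters. Ugt enzymes sit in the membrane of the endoplasmic reticulum and join a sugar from a UDP sugar to small lipophilic molecules, which makes them soluble. In flies both families are known from gut, fat body and Malpighian tubules, and some Ugt genes from the antenna.

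Drosophila melanogaster of the wild-type strain OregonR, kept at 25 C, was studied on 63 spotted arrays with 2 dye channels, in 12 groups. Adults had been moved from standard food to filter paper soaked in buffer alone (starved) or in buffer with 20% sucrose (on sugar). Their controls were adults moved to yeast paste on buffer-soaked paper. Under starvation there were 6 arrays of females at 24 h, 5 at 48 h, and 6 of males at 24 h. Under sucrose there were 5 and 6 arrays of females and 6 and 4 of males for the same times. Where values of 1 regime are given below as a pair, the first is that of 24 h and the second that of 48 h, and starved males were measured at 24 h alone. Larvae kept on apple juice agar with yeast were compared at 52, 64, 76, 88 and 100 h after egg laying, on 6, 5, 6, 4 and 4 arrays, with larvae of 40 h. How old the adults were, the sex of the larvae and how many animals made up an RNA were not stated in the labels. The labels speak of flies and larvae and name no tissue, so less RNA per cell and fewer cells of a type cannot be told apart.

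All arrays of a group carried the same merged value for each clone, so every group was 1 measurement without replicates, and no test was possible. Values are log2 ratios in which 1 means 2-fold, likely treated over control. The direction is not stated, and its basis is the labelled control of each array together with Lsp2, a storage protein made in quantity by late larvae, which lay at 8.52 and 8.26 in larvae of 88 and 100 h. In adult females the yolk and eggshell genes, which serve egg production, lay well below 0, with values given further down. The one spread in the files is the difference between both clones of a gene. Its 95th percentile over 640 to 645 genes under starvation was 0.54 and 0.74 in females and 0.36 in males, under sucrose 0.50 and 0.78 in females and 0.37 and 0.50 in males, and 0.62, 0.65, 0.85, 0.91 and 1.09 in larvae from the youngest to the oldest. This clone spread is the yardstick below, but animals, RNA and hybridisations add spread that it cannot show. Spot brightness was not used, so a ratio near 0 does not tell steady expression from none. The sequences on the spots were not used here, and shared signal between close relatives, above all within the GstD and GstE clusters, was not tested, so values of single cluster members are uncertain as separate genes.

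In adults without yeast most Gst genes lay below the control in every group. In males the Ugt genes did so about as often. Starved, on sugar at 24 h and on sugar at 48 h, 84.4, 90.6 and 84.4% of Ugt genes lay below it, beside 83.3, 86.7 and 80% of Gst genes. In the female groups 25 to 58.1% of Ugt genes lay below it, beside 70 to 86.7% of Gst genes. The median over the 30 Gst genes was -0.29 and -0.20 in females and -0.21 in males under starvation, and -0.30 and -0.28 in females and -0.33 and -0.31 in males under sucrose, and that over the Ugt genes was -0.01 and 0.14 in females and -0.16 in males under starvation, and -0.03 and 0.01 in females and -0.16 and -0.17 in males under sucrose. The 8 genes of the smaller Gst classes had medians nearer the control than the 30 Gst genes together. Under starvation these were -0.05 and -0.02 in females and -0.06 in males. Under sucrose they were -0.07 and -0.08 in females and -0.05 and -0.18 in males. Over all genes the median was between -0.03 and 0.02 in the 12 groups. Members at least 2-fold lower numbered 2, 0, 2, 1, 0, 3 and 5 of 62 (61 in females at 24 h) in the 7 adult groups, in the order females starved 24 and 48 h, males starved, females on sugar 24 and 48 h, and males on sugar 24 and 48 h. Over all genes 0.893, 0.727, 0.566, 1.12, 1.26, 1.13 and 1.83% were that low. Members at least 2-fold higher numbered 0, 0, 0, 0, 1, 0 and 0, beside 0.283, 1.24, 0.0218, 0.391, 1.7, 0.109 and 0.206% of all genes.

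At 1.5-fold, 10, 1, 7, 11, 4, 11 and 17 members were lower in the adult groups in the same order, beside 2.43, 1.95, 1.69, 2.81, 3.39, 2.29 and 3.5% of all genes. The low members were thus above the background share in 6 of the 7 groups, and in females starved for 48 h the single one was not. Members at least 1.5-fold higher numbered 1, 4, 0, 1, 7, 0 and 1, beside 1.84, 6.44, 0.196, 2.19, 6.04, 0.413 and 0.749% of all genes. In larvae, 0, 0, 1, 3 and 2 members were at least 2-fold higher and 0, 0, 0, 3 and 6 lower from 52 to 100 h, beside 0.478, 0.999, 2.07, 3.22 and 4.97% and 1.8, 0.185, 2.81, 4.23 and 6.77% of all genes. These larval shares at 2-fold lie near the background. At 1.5-fold, 7, 8, 15, 11 and 6 members were higher and 0, 1, 3, 7 and 14 lower, beside 1.77, 3.68, 5.74, 7.63 and 11.4% and 3.56, 2.44, 7.75, 9.37 and 14.2% of all genes. The higher members were thus above the background share from 52 to 88 h, and at 100 h they were not. A change of 3-fold was reached by no member in adults, beside 0.0544, 0.152, 0.0109, 0.0652, 0.315, 0.0217 and 0.0651% of all genes higher and 0.392, 0.391, 0.185, 0.511, 0.575, 0.359 and 0.847% lower. In larvae it was reached by Ugt37A3 at 88 and 100 h, above the control, and by GstE6 and Ugt49B1 at 100 h, below it, beside 0.0977, 0.239, 0.706, 1.51 and 1.92% and 0.858, 0.0543, 1.17, 1.49 and 2.94% of all genes.

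**Figure D1:**
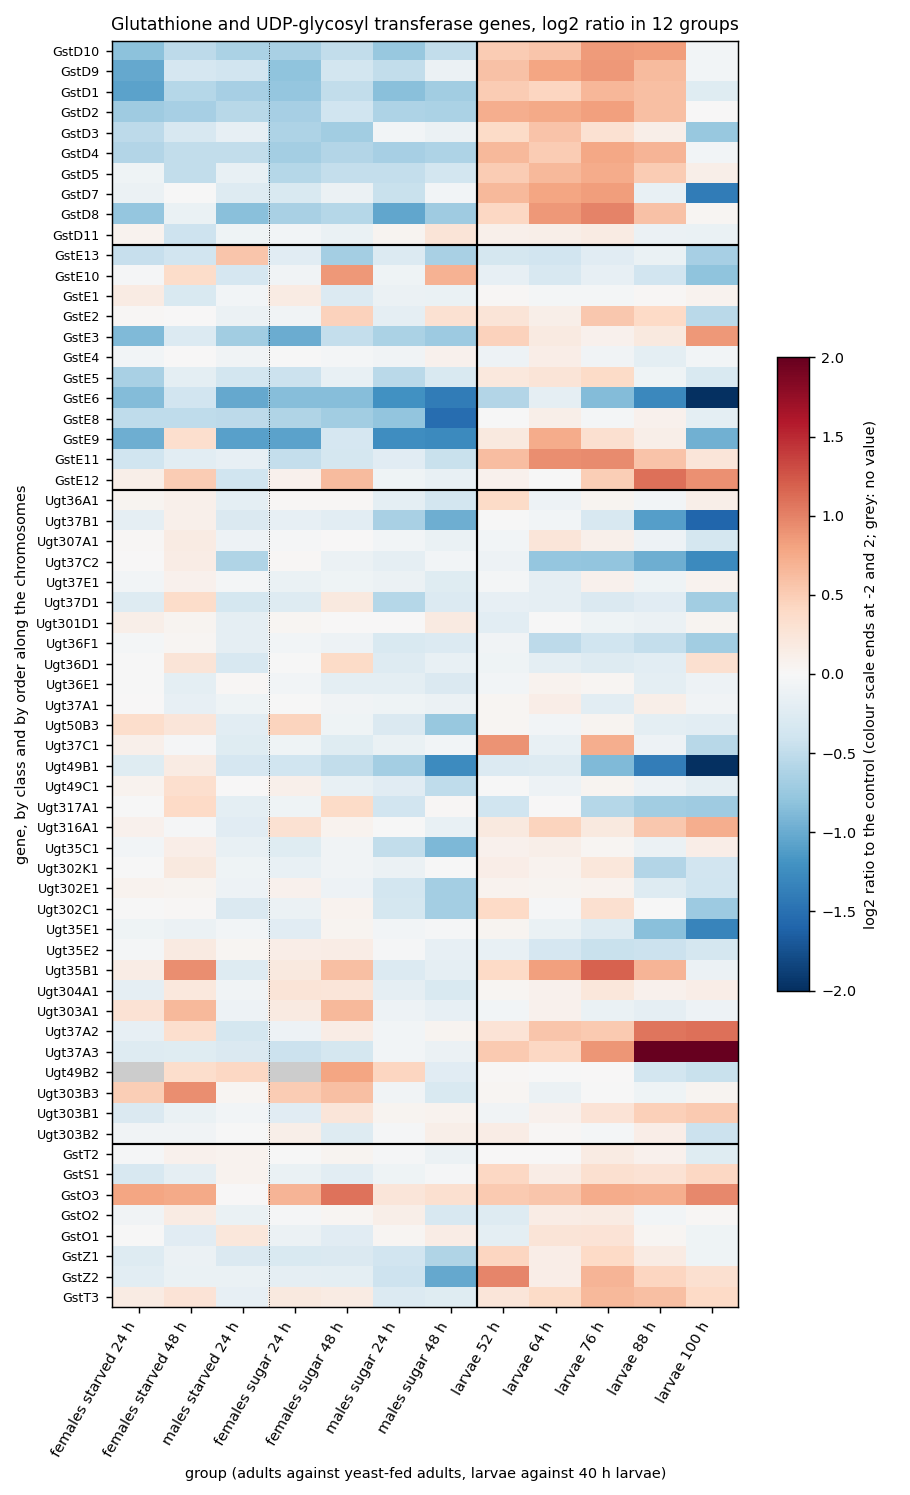
Log2 ratio to the control of each of the 62 genes (rows, by class and by order along the chromosomes) in the 12 groups (columns), with blue for lower and red for higher than the control and grey for no value. The GstD block at the top is mostly blue in the adult groups and red in larvae of 52 to 88 h, and Ugt37A3 (2.00 at 100 h) and Ugt49B1 (-2.96 at 100 h) hold the most extreme larval values.

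**Figure D2:**
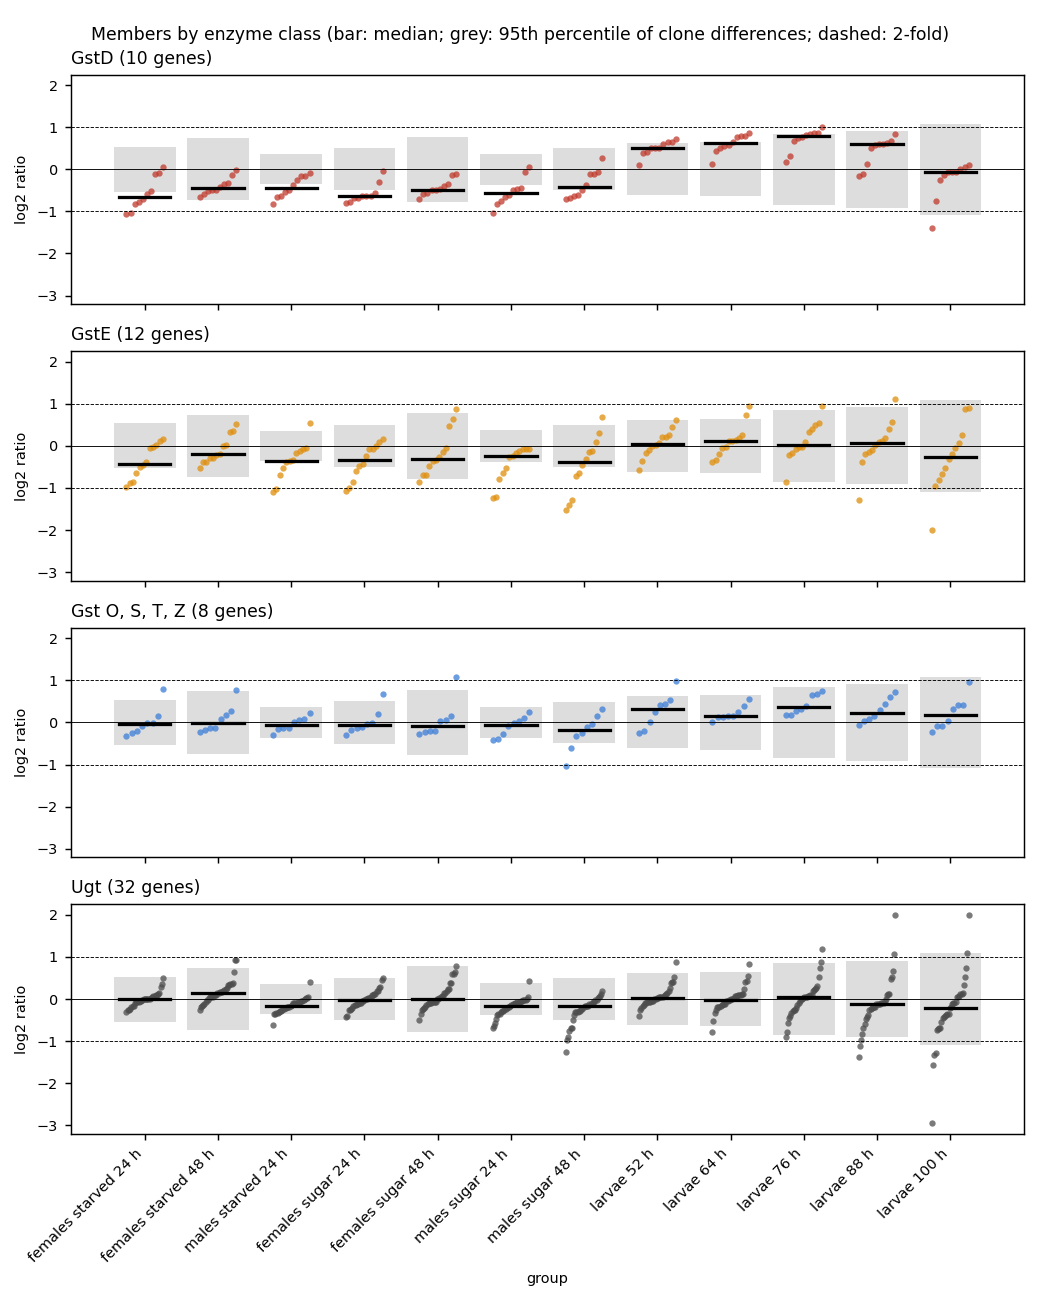
Log2 ratio of every gene (points) by enzyme class and group, with the class median (bar), the 95th percentile of clone differences (grey band) and the 2-fold lines (dashed). GstD medians run from -0.65 to -0.43 in adults and reach 0.80 in larvae of 76 h, while Ugt medians stay between -0.20 and 0.14.

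The delta genes lay together below the control in adults. The class median was -0.65 and -0.45 in females and -0.44 in males under starvation, and -0.64 and -0.48 in females and -0.56 and -0.43 in males under sucrose. It lay beyond the clone spread in every adult group of 24 h and inside it in every one of 48 h. That spread is one of single genes, not of a median over 10. It was also wider at 48 h than at 24 h in each sex and regime measured at both times. In females at 48 h no single delta gene passed that spread. The lowest was at -0.67 starved and -0.70 on sugar, against a spread of 0.74 and 0.78. Of the 10 GstD genes, 9, 10, 10, 10, 10, 9 and 9 lay below 0 in the 7 adult groups in the order given above, where 51.6, 47.8, 48.6, 51.3, 53.1, 48.7 and 45.4% of all genes did. At least 1.5-fold lower were 6, 1, 3, 7, 1, 5 and 4 of the 10, beside 2.43, 1.95, 1.69, 2.81, 3.39, 2.29 and 3.5% of all genes. None was 1.5-fold higher in any adult group, beside 0.196 to 6.44% of all genes.

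GstD1, the delta enzyme known from DDT breakdown and used as a reporter of oxidative stress, was at -1.07 and -0.58 in females and -0.67 in males under starvation, and -0.77 and -0.50 in females and -0.84 and -0.69 in males under sucrose. It was the lowest of the 62 members in females starved for 24 h, and its 7 values spread over less than 2-fold. GstD9, a neighbour of GstD1 in the cluster, was at -1.03 and -0.34 in females and -0.38 in males under starvation, and -0.81 and -0.36 in females and -0.50 and -0.12 in males under sucrose. Both GstD1 and GstD9 were lower at 24 h than at 48 h in females on either regime. GstD8 was at -0.77 and -0.13 in females and -0.84 in males under starvation, and -0.65 and -0.57 in females and -1.03 and -0.71 in males under sucrose, and thus lowest in males, where it was the lowest delta gene in all 3 groups.

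GstD10 ran close to GstD1, at -0.82 and -0.52 in females and -0.64 in males under starvation, and -0.64 and -0.49 in females and -0.76 and -0.49 in males under sucrose. GstD2 was at -0.72 and -0.67 in females and -0.55 in males under starvation, and -0.67 and -0.40 in females and -0.62 and -0.63 in males under sucrose, and GstD4 at -0.59 and -0.49 in females and -0.49 in males under starvation, and -0.68 and -0.58 in females and -0.67 and -0.61 in males under sucrose. These 3 genes differed by at most 0.23 from each other in any adult group, less than the clone spread there. GstD3 had its lowest values in females on sugar, at -0.62 and -0.70, and GstD5 its lowest in such females at 24 h, at -0.56. In males GstD3 lay near the control, at -0.16 starved and -0.05 and -0.12 on sugar.

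GstD7 and GstD11 stood apart from the rest of the class. GstD7 was between -0.45 and -0.01 in adults. GstD11, at one end of the cluster, was at 0.06 and -0.41 in females and -0.08 in males under starvation, and -0.05 and -0.13 in females and 0.06 and 0.26 in males under sucrose, and was the highest delta gene in 5 of the 7 groups. In the other 2, females at 48 h, GstD7 was the highest.

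In larvae most delta genes lay above the 40 h control from 52 to 88 h and near it at 100 h. The class median was 0.51, 0.61, 0.80, 0.59 and -0.06 at 52, 64, 76, 88 and 100 h. All 10 genes were above 0 at 52, 64 and 76 h, when 55.7, 49.3 and 47% of all genes were below it. At least 1.5-fold higher were 4, 5, 8, 5 and 0 of 10 from 52 to 100 h, beside 1.77, 3.68, 5.74, 7.63 and 11.4% of all genes, and no delta gene reached 2-fold higher. Single genes beyond the clone spread were GstD2, GstD4 and GstD7 at 52 h, GstD8, GstD9, GstD7, GstD2 and GstD5 at 64 h, and GstD8, GstD9 and GstD10 at 76 h, several of them by a small margin.

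Between 76 and 100 h the ratio of every delta gene was lower at the later age, with a median difference of -0.91. Over all genes this difference had a median of -0.03, with 53.2% of genes lower at 100 h. All 10 delta genes had their lowest larval value at 100 h, as 31.3% of all genes did, and 9 of the 10 their highest at 76 h, against 16.8%. Both shares use values set against 1 common 40 h control.

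GstD8 was at 0.42, 0.87, 0.99, 0.58 and 0.04 over the 5 ages and had the highest delta value. GstD1 was at 0.51, 0.43, 0.67, 0.60 and -0.24, GstD9 at 0.59, 0.79, 0.87, 0.64 and -0.06 and GstD10 at 0.50, 0.55, 0.85, 0.84 and -0.05. The other course was that of GstD7, at 0.64, 0.79, 0.83, -0.16 and -1.40, which had already left its neighbours at 88 h and was the one delta gene at least 2-fold below the control. GstD3 went the same way less far, from 0.57 at 64 h to -0.76 at 100 h. GstD11 was the flattest, between -0.13 and 0.16.

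**Figure D3:**
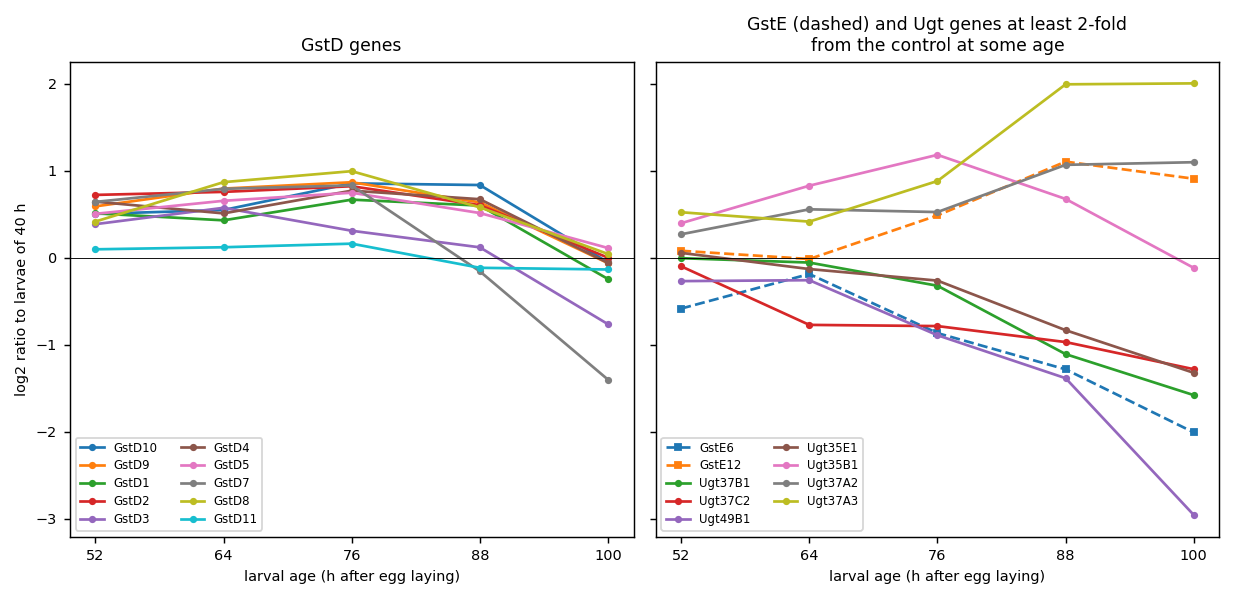
Log2 ratio to larvae of 40 h against larval age in hours after egg laying, for the 10 GstD genes (left) and for the GstE and Ugt genes at least 2-fold from the control at some age (right; GstE dashed). Most delta genes lie above 0 up to 88 h and near it at 100 h, where GstD7 (-1.40) and GstD3 (-0.76) are lowest, and GstD11 stays between -0.13 and 0.16, while the genes on the right fan out from 76 h on.

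The epsilon class was lower on average in adults but far less uniform. Its median was -0.42 and -0.20 in females and -0.35 in males under starvation, and -0.33 and -0.30 in females and -0.25 and -0.38 in males under sucrose. Of the 12 genes, 0, 0, 2, 1, 0, 2 and 3 were at least 2-fold lower in the 7 adult groups in the order given above, and 4, 0, 3, 4, 3, 4 and 5 at least 1.5-fold lower, beside the same shares of all genes as for the members together. No epsilon gene was 2-fold higher in adults.

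GstE9 and GstE6 were low in both sexes. GstE9 was at -0.97 and 0.33 in females and -1.08 in males under starvation, and -1.07 and -0.33 in females and -1.24 and -1.28 in males under sucrose. It was the lowest of all 62 members in starved males, in females on sugar at 24 h and in males on sugar at 24 h, and its value in females starved for 48 h was the one above the control. GstE6 was at -0.86 and -0.38 in females and -1.03 in males under starvation, and -0.85 and -0.85 in females and -1.22 and -1.39 in males under sucrose, with the 2 lowest values in males on sugar. GstE8 was at -0.50 and -0.52 in females and -0.52 in males under starvation, and -0.60 and -0.70 in females and -0.79 and -1.53 in males under sucrose, and its value in males after 48 h on sugar was the lowest of any member in an adult group. GstE3 was at -0.89 and -0.28 in females and -0.70 in males under starvation, and -0.99 and -0.48 in females and -0.64 and -0.73 in males under sucrose and thus lowest in females at 24 h.

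Other epsilon genes lay above or near the control. GstE10 was at -0.02 and 0.36 in females and -0.34 in males under starvation, and -0.08 and 0.87 in females and -0.08 and 0.69 in males under sucrose: after 48 h on sugar it was the highest epsilon gene in both sexes, and beyond the clone spread in both. GstE12 lay above the control in females at 48 h, at 0.51 starved and 0.64 on sugar, inside the clone spread. GstE13 was at 0.55 in starved males, the highest member there, against -0.46 in females starved equally long. GstE1 and GstE4 stayed between -0.30 and 0.17.

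The larval epsilon genes ran in opposite directions, and their medians of 0.05, 0.12, 0.02, 0.06 and -0.25 hide this. GstE6 was at -0.58, -0.19, -0.87, -1.28 and -2.01 from 52 to 100 h, and lay below the clone spread from 76 h on. GstE12 was at 0.08, -0.01, 0.49, 1.10 and 0.91, the one epsilon gene at least 2-fold higher in larvae, at 88 h. GstE11 was at 0.62, 0.94, 0.94, 0.57 and 0.25, above the clone spread at 52, 64 and 76 h in values that never reached 2-fold.

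GstE9 had its highest value at 64 h and its lowest at 100 h, at 0.20, 0.74, 0.32, 0.12 and -0.96. GstE3 was at 0.46, 0.19, 0.08, 0.19 and 0.87 and thus highest at the last age, inside the clone spread. GstE4 lay within -0.20 and 0.13 and GstE1 within -0.04 and 0.07 throughout.

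Among the smaller classes, the omega gene GstO3 stood out by high values in females on both regimes. Omega enzymes act mainly as thiol transferases and reductases. GstO3 was at 0.80 and 0.76 in females and 0.01 in males under starvation, and 0.69 and 1.09 in females and 0.25 and 0.32 in males under sucrose: its 4 female values lay beyond the clone spread and above the 3 male values, which lay inside it. It was the highest of the 62 members in females on both regimes at 24 h and on sugar at 48 h. The neighbouring GstO1 and GstO2 stayed between -0.31 and 0.22 in adults. The clones of GstO2 differed by more than the clone spread in males on sugar at 24 h, at 0.53 and -0.30.

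Zeta enzymes convert maleylacetoacetate in the breakdown of tyrosine, and both zeta genes were low in males on sugar. GstZ2 was at -0.21 and -0.13 in females and -0.14 in males under starvation, and -0.18 and -0.20 in females and -0.42 and -1.03 in males under sucrose, and GstZ1 at -0.25 and -0.12 in females and -0.30 in males under starvation, and -0.30 and -0.29 in females and -0.39 and -0.60 in males under sucrose. The lowest value of each was that of males after 48 h on sugar, where both lay beyond the clone spread. The sigma gene GstS1, whose enzyme is abundant in flight muscle and conjugates lipid peroxidation products, stayed between -0.32 and 0.07, and the theta genes GstT2 and GstT3 between -0.27 and 0.28.

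In larvae the median of the smaller classes was 0.33, 0.15, 0.36, 0.23 and 0.17 from 52 to 100 h, and none of the 8 genes was 2-fold from the control. GstO3 was at 0.53, 0.56, 0.75, 0.72 and 0.96. GstZ2 was highest at the first age, at 0.98, 0.14, 0.68, 0.43 and 0.32, and beyond the clone spread there alone. GstT3 was at 0.24, 0.39, 0.65, 0.61 and 0.41, GstS1 at 0.41, 0.15, 0.32, 0.30 and 0.42 and GstZ1 at 0.43, 0.13, 0.40, 0.16 and -0.08, all inside the clone spread.

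The Ugt genes lay near the control in adults, though mostly below it in males. In some adult group 1 of 32 passed 2-fold, beside 5.26% of all genes. The class median was -0.01 and 0.14 in females and -0.16 in males under starvation, and -0.03 and 0.01 in females and -0.16 and -0.17 in males under sucrose. In males 27 of 32 genes lay below 0 when starved and 29 and 27 on sugar, where 48.6, 48.7 and 45.4% of all genes did. In females 18 of 31 and 8 of 32 lay below 0 when starved and 18 and 15 on sugar, where 51.6, 47.8, 51.3 and 53.1% of all genes did.

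Ugt49B1 was the one Ugt gene at least 2-fold from the control in adults. It was at -0.25 and 0.16 in females and -0.33 in males under starvation, and -0.40 and -0.49 in females and -0.68 and -1.26 in males under sucrose, and beyond the clone spread in males on sugar alone. In the same males several other Ugt genes were low at 48 h: Ugt37B1 was at -0.98, Ugt35C1 at -0.91, Ugt50B3 at -0.75, Ugt302E1 at -0.69 and Ugt302C1 at -0.68. With Ugt49B1 these make the 6 of 32 at least 1.5-fold lower in that group, beside 3.5% of all genes. Ugt35C1 rests on clones at -0.36 and -1.46, further apart than the clone spread.

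The highest adult Ugt values were those of females, and Ugt49B2 was high in males at 24 h as well. Ugt303B3 was at 0.49 and 0.93 in females and 0.04 in males under starvation, and 0.50 and 0.61 in females and -0.07 and -0.30 in males under sucrose. Ugt35B1, known from the antenna, was at 0.15 and 0.93 in females and -0.26 in males under starvation, and 0.20 and 0.60 in females and -0.28 and -0.18 in males under sucrose, and Ugt303A1 at 0.29 and 0.65 in females and -0.10 in males under starvation, and 0.19 and 0.64 in females and -0.10 and -0.17 in males under sucrose. At 48 h of starvation Ugt303B3 and Ugt35B1 lay beyond the clone spread and Ugt303A1 inside it, and in males the 3 genes lay between -0.30 and 0.04. Ugt49B2 had no value in females at 24 h. Under starvation it was at 0.35 in females at 48 h and 0.41 in males, and under sucrose at 0.79 in females at 48 h and 0.44 and -0.23 in males at 24 and 48 h. Its male values at 24 h and that of females on sugar lay beyond the clone spread, and that of starved females inside it. Ugt37D1 had clones further apart than the clone spread in 6 of the 12 groups, so its values are not described further.

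In larvae single Ugt genes took strong and opposite courses. Ugt49B1 was at -0.27, -0.26, -0.89, -1.38 and -2.96 from 52 to 100 h, and its last value was the lowest of all 62 members in any group. Ugt37A3 was at 0.52, 0.42, 0.88, 1.99 and 2.00, the highest of all members in any group. Its neighbour Ugt37A2 was at 0.27, 0.56, 0.52, 1.07 and 1.10 and lay beyond the clone spread at 88 and 100 h.

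Ugt37B1 was lower at each later age, at -0.01, -0.06, -0.32, -1.11 and -1.58. So was Ugt35E1, at 0.06, -0.13, -0.26, -0.83 and -1.32, and Ugt37C2, at -0.10, -0.77, -0.79, -0.97 and -1.28. These 3 of 32 were the Ugt genes lower at each of the 4 steps, and Ugt303B1 was the one higher at each, at -0.07, 0.09, 0.27, 0.48 and 0.53. Of 9197 genes, 421 were lower and 354 higher at each step, and of all 62 members 3 and 1. The 4 lowest Ugt genes at 100 h, Ugt49B1, Ugt37B1, Ugt35E1 and Ugt37C2, were the 4 of 32 at least 2-fold lower, beside 6.77% of all genes.

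Ugt35B1 had a peak in the middle, at 0.40, 0.83, 1.18, 0.68 and -0.12, and was the one member at least 2-fold higher at 76 h. Ugt37C1 alternated, at 0.89, -0.15, 0.73, -0.11 and -0.56, so that its ratio at 64 h was lower than that at 52 h by 1.04 on the log2 scale. Others stayed flat, for example Ugt37E1, Ugt301D1, Ugt304A1, Ugt303A1 and Ugt36E1, which lay between -0.21 and 0.22 at all 5 ages. Among the flat genes Ugt36E1 is known from olfactory neurons that sense pheromone.

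Among runs of genes that lie side by side on the chromosome, the widest adult range was that of the GstE run in males after 48 h on sugar. A run was taken as members with at most 2 other genes between them, and the order is that of the annotation. The GstD run holds all 10 measured delta genes, from GstD10 to GstD11. The GstE run from GstE10 to GstE9 holds 9 measured genes and had a range within a group of 0.88 to 2.22 in adults, against 0.58 to 1.14 in the GstD run. In the GstE run GstE10 at one end and GstE9 at the other were 0.69 and -1.28 in males after 48 h on sugar.

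The longest Ugt run, from Ugt35C1 to Ugt303A1, holds 9 measured genes, and its range in adults ran from 0.33 in starved males to 1.05 in females starved for 48 h, the latter between Ugt35E1 at -0.12 and Ugt35B1 at 0.93. In larvae of 76 h it was 1.62, between Ugt35E2 at -0.44 and Ugt35B1 at 1.18. Members of this run thus lay on both sides of the control in 1 group. Ugt37A2 and Ugt37A3, which lie next to each other elsewhere, were both at least 2-fold higher in larvae of 88 and 100 h.

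Between the sexes, most Ugt ratios were higher in females than in males, while the delta medians were close to equal or slightly lower in females. The difference in the ratio to yeast, female minus male, had a median over Ugt genes of 0.12 when starved for 24 h, 0.23 on sugar at 24 h and 0.33 at 48 h, with 24 of 31, 25 of 31 and 26 of 32 genes above 0. Over all genes 50.7, 51.3 and 49.6% were above 0, with medians of 0.0042, 0.01 and -0.0031. For the delta genes the medians were -0.13, -0.03 and -0.03, and for the epsilon genes 0.07, 0.11 and 0.17. None of these medians was tested.

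Only GstE13 and Ugt49B2 were 2-fold apart between the sexes, in 1 of the 3 comparisons each. GstE13 was lower in starved females than in starved males, by 1.00 on the log2 scale, 1 of 61 members beside 0.556% of all genes. Ugt49B2 was higher in females after 48 h on sugar, at 0.79 against -0.23, a difference of 1.02, 1 of 62 beside 2.57% of all genes. Next on sugar at 48 h came GstE9, Ugt303B3 and Ugt35C1, with differences of 0.94, 0.91 and 0.84. That of Ugt35C1 is uncertain, since its clones disagree. One clone was at -0.41 in females and -0.36 in males, the other at 0.28 and -1.46. GstO3 differed by 0.79, 0.44 and 0.77 in the 3 comparisons, with females above in each.

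**Figure D4:**
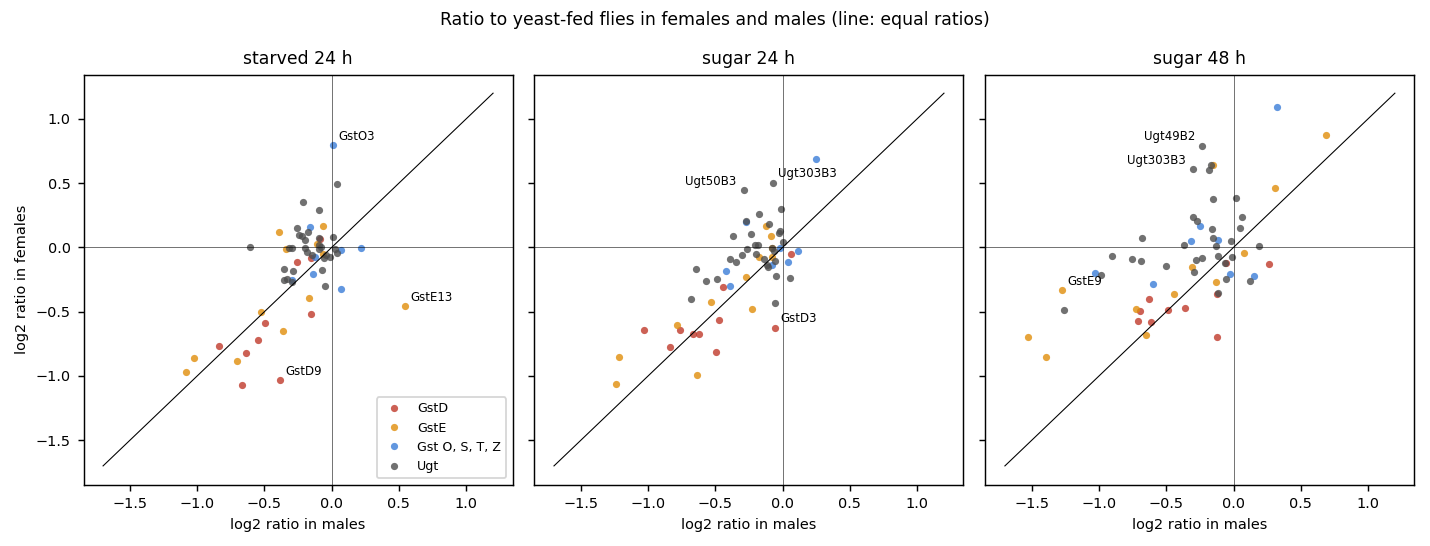
Log2 ratio to yeast-fed flies in females (vertical) against males (horizontal) for each member, in starvation at 24 h and on sugar at 24 and 48 h, with the line of equal ratios and the 3 members furthest from it named. Most Ugt points lie above the line, and the delta points lie on both sides of it in the lower left part.

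Between starved and sugar-fed flies of 1 sex no member was 2-fold apart at matched time, and few genes of any kind were. Of all genes 0.0653% were 2-fold higher and 0.0545% 2-fold lower under starvation in females at 24 h, 0.793% and 0.141% in females at 48 h, and 0.196% and 0.37% in males, so the count of 0 is near what all genes gave. The labels do not say whether both regimes shared the same yeast-fed RNA, so the values are given side by side. In females at 24 h the largest gap was that of GstD5, at -0.08 starved and -0.56 on sugar. At 48 h it was that of GstE9, at 0.33 and -0.33, and after it Ugt49B1, at 0.16 and -0.49. In males at 24 h GstE13 was at 0.55 starved and -0.27 on sugar.

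In starved females most ratios were higher at 48 h than at 24 h. The later minus the earlier ratio had a median of 0.15 in GstD, 0.28 in GstE and 0.15 in Ugt genes, and of 0.02 over all genes, and 46 of 61 members were above 0 against 53.4% of all genes. GstE9 differed most, by 1.30, the 1 member at least 2-fold apart beside 0.632% of all genes. Ugt35B1 and GstD9 followed with 0.78 and 0.69. In males on sugar, GstE8 was lower at 48 h than at 24 h, at -1.53 and -0.79, and GstE10 higher, at 0.69 and -0.08.

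Among the genes that supply the cosubstrates, those 2-fold from the control in adults were Ahcy, UGP and Pgm1, all lower and all in males on sugar. Of the 18 genes listed around glutathione, 12 were measured, and their medians were -0.15, -0.01, -0.08, -0.18, -0.21, 0.03 and -0.08 in the adult groups. Gclc, the catalytic subunit of the first enzyme of glutathione synthesis, was at 0.44 and 0.09 in females and 0.13 in males under starvation, and 0.37 and 0.34 in females and 0.14 and -0.09 in males under sucrose, and its partner Gclm at -0.08 and -0.34 in females and 0.01 in males under starvation, and -0.26 and -0.22 in females and 0.11 and 0.0018 in males under sucrose. Ahcy, of the methionine cycle, was at -0.69 in starved males and -0.97 and -1.60 in males on sugar, and Cth, which makes cysteine, at -0.54, -0.68 and -0.70 in the same groups. Ggt-1, of the family that splits glutathione outside the cell, was at -0.72 and -0.54 in females and -0.48 in males under starvation, and -0.65 and -0.56 in females and -0.49 and 0.04 in males under sucrose, so that it was low in 6 of the 7 groups. Trx2, a thioredoxin, was at -0.51 and -0.63 in females at 24 h under starvation and sucrose. Of the 6 measured UDP sugar genes, UGP, which makes UDP-glucose, was at -1.26 and -1.23 and Pgm1, which supplies it with glucose 1-phosphate, at -0.71 and -1.28 in males on sugar. These made 1 and 2 of 6 at least 2-fold lower at 24 and 48 h, and Ahcy made 1 of the 12 glutathione genes at 48 h. Of all genes 1.13 and 1.83% were that much lower. In females UGP was at -0.55 and 0.34 under starvation and -0.71 and -0.83 under sucrose, below the control by more than the clone spread in all but the second.

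In larvae, Gtpx, a peroxidase of the glutathione peroxidase family, was at 0.35, 0.55, 0.70, 1.13 and 1.81, and catalase (Cat) at 0.23, 0.48, 1.04, 1.61 and 1.06. Trx2 was at 0.19, 0.36, 0.17, -0.50 and -1.39, so that it was over 2-fold lower at 100 h, and Ahcy was at -1.55 there. Of the 12 glutathione genes, 1, 2 and 2 were at least 2-fold higher at 76, 88 and 100 h, and 2 lower at 100 h. Of all genes 2.07, 3.22 and 4.97% were that much higher at these ages, and 6.77% lower at 100 h. Of the known regulators of detoxification genes 9 of 10 were measured and none was 2-fold from the control in any group. cnc, the Nrf2 factor of flies, stayed between -0.13 and 0.20 in adults and was at 0.75 at 100 h, and its inhibitor Keap1 was at 0.44 and 0.52 in females at 48 h. These values of cnc and Keap1 lay inside the clone spread. The regulators furthest from the control in adults were ss and gce. In females starved for 24 h ss was at -0.82, beyond the clone spread. In starved females gce was at 0.54 and 0.73, beyond it by a small margin at 24 h and inside it at 48 h. None of the 5 measured carriers listed for export, Mdr49, Mdr50, Mdr65, Mrp4 and rdog, was 2-fold from the control in any group. Nor was any of the 3 other genes with a Gst-like domain. Which compounds these carriers move was not examined.

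The median of the cytochrome P450 genes, which act before conjugation, lay closer to the control in adults than that of the delta class. Over 66 genes, 1 of them a pseudogene, their medians were 0.03, 0.06, -0.10, -0.01, -0.06, -0.08 and -0.10 in the adult groups in the order given above, with 1, 3, 0, 2, 3, 0 and 0 genes at least 2-fold higher and 0, 0, 0, 0, 0, 0 and 3 lower. Of all genes 0.0218 to 1.7% were that much higher and 0.566 to 1.83% lower in the adult groups. In larvae the P450 medians were 0.06, 0.18, 0.28, 0.28 and 0.27, with 0, 2, 6, 10 and 11 genes at least 2-fold higher and 2, 0, 2, 3 and 4 lower. Of all genes 0.478, 0.999, 2.07, 3.22 and 4.97% were that much higher and 1.8, 0.185, 2.81, 4.23 and 6.77% lower. At 100 h, 22 of the 66 lay below 0, beside 51.8% of all genes. The lowest was at -2.49, and the delta median was -0.06. The difference between the families was not tested.

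Tissue markers differed from the control as well in these whole animals. The 32 measured of 38 listed genes of gut digestion had medians of -0.35, 0.06, -0.60, -0.50, -0.39, -0.57 and -1.08 in adults and 0.24, 0.68, 0.96, 1.19 and 0.75 in larvae. In adults the list was split: 20, 14, 31, 20, 19, 20 and 25 of 32 (31 in females starved for 24 h) lay below 0, 8, 2, 9, 9, 10, 10 and 16 were at least 2-fold lower and 3, 4, 0, 2, 6, 1 and 0 at least 2-fold higher. Its lowest values in the adult groups were -2.23, -1.46, -2.61, -2.29, -2.47, -2.18 and -3.88 and its highest 1.37, 1.42, 0.08, 1.29, 1.43, 1.00 and 0.53. Of all genes in the adult groups, 45.4 to 53.1% lay below 0, 0.566 to 1.83% were at least 2-fold lower and 0.0218 to 1.7% higher. The delta medians were below 0 in all 7 of these groups, and a link to the gut list was not tested. In larvae 2, 7, 15, 20 and 11 of the 32 were at least 2-fold higher from 52 to 100 h and none lower. Of all genes 0.478, 0.999, 2.07, 3.22 and 4.97% were that much higher and 1.8, 0.185, 2.81, 4.23 and 6.77% lower. The 17 measured of 22 listed yolk and eggshell genes had medians of -2.24 and -2.82 when females were starved and -2.64 and -2.79 under sucrose, and the 13 of 22 muscle genes 0.33 and 0.83, then 0.37 and 0.70. In males the medians of these lists lay between -0.09 and 0.13, and their single genes between -0.93 (fln) and 0.58 (Cp36), both after 48 h on sugar.

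Of 6 listed markers of Malpighian tubules 3 were measured, with medians of 0.25, 0.59, -0.07, 0.29, 0.78, 0.18 and 0.27 in adults. In females at 48 h these 3 were split. NtR was at -0.42 starved and -0.33 on sugar, while the highest were List at 0.60 starved and Irk3 at 0.97 on sugar. Fat body markers, with 5 of 8 measured, had adult medians of -0.13, 0.07, -0.12, -0.16, -0.12, -0.03 and -0.21 and larval medians of 0.22, 0.64, 0.28, 1.06 and 1.53, and these markers went apart. Lsp2 was between -7.25 and -4.59 in the adult groups, and Apoltp between 0.61 and 1.95. Of 8 antenna markers 3 were measured. Obp99a was at -1.02 and -1.76 in females under starvation and -0.94 and -1.45 under sucrose, while Obp28a was at 0.20 and 0.73, then 0.38 and 0.82, and lush stayed between -0.22 and 0.18 in all adult groups. The part of any of these tissues in the Gst and Ugt values was not tested.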

How the data were processed

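Spotted arrays with 2 dye channels held treated RNA in one channel and control RNA in the other. The authors' deposited values are log2 ratios. Arrays were scanned 3 times per the labels, and both spot copies and all repeat hybridisations entered 1 merged value, which all arrays of a group carry. The base is 2, since of 289992 values 99.996% gave back a ratio of 6 decimals (tolerance 0.05 of the sixth decimal) when taken as powers of 2, compared with 9.98% for e and 9.87% for 10. How the authors normalised, corrected background and centred the ratios is not given in the sources used here. 2 of the 5 arrays of females starved for 48 h carry the same array number.

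Of 12094 clones, 10148 had 1 gene symbol in the platform annotation, 1945 none and 1 several. Symbols were updated through RefSeq (assembly Release 6 plus ISO1 MT): 9814 clones by gene identifier, 87 by accession and 247 by symbol alone. Clones of 1 gene were summarised by their median, for 9212 genes in all, and a gene was called at least 2-fold from the control at a log2 ratio of 1 or more, or -1 or less. Python 3.11.15, pandas 2.3.3, numpy 2.4.6 and matplotlib 3.10.9 were used, and the calling steps were tested on simulated data.

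The members and all gene lists were chosen with earlier results of these data known. P450 genes were taken by a symbol of Cyp, a number and a small letter, which leaves out the cyclophilins of like name. Members at least 2-fold from the control in some group, and the highest and lowest of a class or difference, are named, and other members by class. With 1 merged value per group there is no spread between replicates, no p-value, and no interval. The depth of a spot's signal was not used here. Alternatives were thresholds of 1.5-fold and 3-fold, the mean over clones, centring, the annotation's own symbols, and leaving out members whose clones disagree.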

Additional observations from a re-analysis of the deposited data

How the results depend on the processing

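No paired analysis was possible because all arrays of a group carry the same merged value, so a chip number holds no value of its own. For the same reason no array could be left out. Lowering the threshold to 1.5-fold changed 21 of the 24 counts of members. In the order of females starved 24 and 48 h, males starved, females on sugar 24 and 48 h, males on sugar 24 and 48 h and larvae of 52, 64, 76, 88 and 100 h, the counts became 1, 4, 0, 1, 7, 0, 1, 7, 8, 15, 11 and 6 higher and 10, 1, 7, 11, 4, 11, 17, 0, 1, 3, 7 and 14 lower. At 3-fold, 11 of 24 counts moved. They became 0 in all adult groups and in larvae of 52, 64 and 76 h, and left 1 member higher at 88 h, 1 higher and 2 lower at 100 h, and 0 lower at 88 h. Under the mean over clones, under centring, under the annotation's own symbols and without members whose clones disagree, each of the 24 counts stayed within 1.5 times its value, and none of the 48 medians of enzyme classes moved by more than 0.031 on the log2 scale. These settings could change little. With at most 2 clones per member the mean equals the median. Centring shifts a group by its small median over all genes, and only the 4 members with 2 clones could be left out. This steadiness is therefore no sign that the values would repeat. What limits the values is the single measurement per group, and the oldest larvae had the widest clone differences.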

Other observations

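Counted over all 12 groups, 17 of the 62 members (27.4%) were at least 2-fold from the control in some group, beside 1577 of 9212 genes (17.1%). In the adult groups alone these were 9 members (14.5%) beside 485 genes (5.26%), and in the larval groups 10 members (16.1%) beside 1278 genes (13.9%). By class, the adult members were 3 GstD, 3 GstE, 2 of the smaller Gst classes and 1 Ugt gene, and the larval members 1 GstD, 2 GstE and 7 Ugt genes. GstE6 was 2-fold lower in both sets, as was Ugt49B1. Groups of 1 sex share a control regime and the larval ages share 1 control, so a gene counted once can rest on 1 control measurement. These shares are descriptions without a test.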
